A study of Mus musculus with 6 samples.

Results

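The comparison described here set primary mouse hepatocytes treated with GW1516 against primary mouse hepatocytes treated with DMSO, over all genes that the arrays detected and for rises and falls alike. GW1516 is a synthetic agonist of the nuclear receptor PPAR-delta, and DMSO is the solvent that served as vehicle. The members were the 2 arrays labelled GW1516 and the 2 arrays labelled DMSO, 4 of the 6 arrays of the series, and a probe entered where its detection p was below 0.05 on both GW1516 arrays or on both DMSO arrays. The remaining 2 arrays held cells treated with KD3010, a second PPAR-delta agonist, and entered the estimate of array spread and the normalisation. The hepatocytes of every group were from 10-week-old wildtype males, C57Bl6/J in background. Doses, treatment times, the number of animals and whether animals were pooled are not given in the sources used here. Within a group the arrays are labelled as technical replicates, so every p-value below measures the spread between arrays, which may be technical.

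Each array measured 25697 probes by bead hybridisation of labelled RNA copies. The GW1516 arrays detected 10507 (A) and 10805 (B) probes, and the DMSO arrays detected 10550 (A) and 10542 (B). Mean probe intensity was 953.2 and 1095 on the GW1516 arrays, against 1157 and 1103 on the DMSO arrays. In all, 10369 probes passed the detection rule and gave 7947 tested features, made up of 7356 named genes, each at its brightest probe, and 591 unnamed probes. GW1516 array B correlated at 0.9893 with GW1516 array A and at 0.9895 with DMSO array A, so it lay slightly closer to a DMSO array than to its own partner. The 15 tested hepatocyte markers of 20 with a probe were detected on all 4 arrays, and their summed signal was 387900 and 409400 on the GW1516 arrays, against 385100 and 393000 on the DMSO arrays. Only 3 of 15 Kupffer cell markers and 1 of 14 lymphocyte markers passed the detection rule. Of 21 sinusoidal endothelial markers, 14 were tested, with a summed signal of 4542 and 4391 under GW1516, against 4059 and 3974 under DMSO. Of 16 stellate cell markers, 5 were tested, and their sums of 4710 and 5907 under GW1516 spanned the 5266 and 5681 under DMSO. In such bulk samples, fewer cells of a type and less RNA per cell cannot be told apart.

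PPAR-delta is a ligand-activated transcription factor that binds DNA together with a retinoid X receptor. The receptor pair recognises repeats of a short hexamer, and an agonist exchanges corepressors for coactivators on genes that carry them. In liver, PPAR receptors are known for the control of genes of fatty acid transport, mitochondrial and peroxisomal oxidation, lipid droplet coating and the sparing of glucose during fasting. PPAR-alpha, the dominant receptor of the family in hepatocytes, shares many of these targets.

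The promoters of the strongest called genes are shown because the fitted differences below turn on these genes and their receptor is known for its hexamer. The sequences are RefSeq windows on GRCm38.p6, 250 bases up to the transcription start, in the direction of transcription, with AGGTCA or its reverse complement TGACCT in capitals. Pdk4 lies at chr6:5496279-5496528 on the minus strand, Creb3l3 at chr10:81092592-81092841 on the minus strand, Plin2 at chr4:86670060-86670309 on the minus strand and Hilpda at chr6:29272238-29272487 on the plus strand.
Pdk4: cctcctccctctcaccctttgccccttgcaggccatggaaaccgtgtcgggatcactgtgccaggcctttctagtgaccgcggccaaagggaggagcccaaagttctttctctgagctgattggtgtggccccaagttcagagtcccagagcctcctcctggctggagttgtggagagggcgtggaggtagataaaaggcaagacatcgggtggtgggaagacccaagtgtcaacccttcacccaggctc
Creb3l3: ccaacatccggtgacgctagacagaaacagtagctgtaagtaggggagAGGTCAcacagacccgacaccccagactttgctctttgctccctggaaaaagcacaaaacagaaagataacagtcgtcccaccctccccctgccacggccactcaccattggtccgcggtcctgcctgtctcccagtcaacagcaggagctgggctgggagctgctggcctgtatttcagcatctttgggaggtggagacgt
Plin2: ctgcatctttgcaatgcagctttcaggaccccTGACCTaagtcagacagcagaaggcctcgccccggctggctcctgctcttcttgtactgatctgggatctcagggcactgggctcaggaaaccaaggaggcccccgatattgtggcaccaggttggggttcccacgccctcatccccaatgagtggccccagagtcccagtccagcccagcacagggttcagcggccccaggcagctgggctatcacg
Hilpda: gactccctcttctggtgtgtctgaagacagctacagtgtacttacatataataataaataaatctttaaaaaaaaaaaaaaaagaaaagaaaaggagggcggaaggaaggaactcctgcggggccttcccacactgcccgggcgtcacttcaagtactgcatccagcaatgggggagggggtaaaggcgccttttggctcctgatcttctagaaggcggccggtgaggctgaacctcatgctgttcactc
A single hexamer stands in the Creb3l3 window shown, on the transcribed direction, starting 202 bases before the transcription start. A second RefSeq window of Creb3l3, at chr10:81098873-81099122 on the minus strand, holds 0. The Plin2 window holds 1 on the opposite strand, starting 218 bases before the start, and the Pdk4 and Hilpda windows hold 0. All 7 named genes called in the next paragraph had a promoter in RefSeq, 10 windows in all, of which 3 held the hexamer, the third being that of Ivl. Over all 32851 promoter windows of the same length, 14% held it on either strand, and over the 7793 windows of tested genes 11.7% did. The direct repeat spaced by 1 base, AGGTCANAGGTCA, was in 0 of the 10 windows and in 0.0335% of all windows. These are matches of letters in a short window and describe neither binding nor its absence.

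Under GW1516 the called genes all rose, and 5 of the 7 with a name are on the list of PPAR target genes. That list covers 30 of the 7947 tested features and was drawn up with earlier results of these data known, so the overlap is a description. Pdk4, the kinase that shuts the pyruvate dehydrogenase complex and so spares glucose while fat is burned, rose 7.29-fold. Creb3l3, a liver transcription factor that drives fasting lipid genes, rose 3.95-fold, and the lipid droplet coat gene Plin2 rose 3.54-fold. Hilpda, a droplet protein that inhibits the lipase of stored triglyceride, rose 2.72-fold, and Nceh1, a hydrolase of cholesterol esters, rose 2.37-fold. With limma, 8 of 7947 features (0.101%) were called higher at an adjusted p below 0.05 and at least 1.5-fold, and 0 (0%) were called lower.

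Pdk4 had log2 signals of 11.51 and 11.53 on the GW1516 arrays, against 8.96 and 8.35 on the DMSO arrays. The GW1516 arrays nearly coincided, and both stood far above the more scattered DMSO arrays. The log2 difference was 2.87 ± 0.21 (SE, n = 2 arrays each), with a 95% confidence interval of 2.41 to 3.33 (limma, adjusted p = 0.00079). In the uncorrected files, Pdk4 had bead intensities of 2716 and 3318 on the GW1516 arrays, against 785.2 and 562.5 on the DMSO arrays. Creb3l3 had 11.07 and 10.76 under GW1516, against 8.84 and 9.02 under DMSO, a log2 difference of 1.98 ± 0.17 (limma, adjusted p = 0.00243). Plin2 had 12.29 and 12.45 under GW1516, against 10.76 and 10.33 under DMSO. Its difference was 1.82 ± 0.26 (limma, adjusted p = 0.0447), close to the threshold, and with the GW1516 and DMSO arrays fitted alone the adjusted p was 0.0148. Hilpda had 13.25 and 13.13 under GW1516, against 11.92 and 11.57 under DMSO, and its difference was 1.45 ± 0.17 (limma, adjusted p = 0.0238). A further, separately fitted probe of Hilpda differed by 1.35 ± 0.16 (limma, adjusted p = 0.0292 over all detected probes). Nceh1 had 10.96 and 10.78 under GW1516, against 9.64 and 9.61 under DMSO.

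The other 3 called features were 2 genes outside the lists of fat metabolism and 1 unnamed probe. Mapre3, which encodes a protein that tracks growing microtubule ends, had 7.29 and 7.41 under GW1516, against 6.05 and 5.81 under DMSO. Ivl, which encodes involucrin of the epidermal cornified envelope, had 7.07 and 7.32 under GW1516, against 5.73 and 6.0 under DMSO. Neither was detected on a DMSO array, so only bounds hold after background correction: Mapre3 was at least 2.21-fold and Ivl at least 1.99-fold higher. The bounds were not tested. The calls rest on fitted log2 differences of 1.42 for Mapre3 and 1.33 for Ivl, which use DMSO signal below detection (limma, adjusted p = 0.0238 for both). For the bound, each DMSO array was given its lowest detected signal, or the probe's own signal where that was higher. Without background correction the log2 differences were 0.48 for Mapre3 and 0.44 for Ivl, and neither was called. Both genes passed the detection rule only through the GW1516 arrays, and 6 features were called when detection on all 4 arrays was required. An unnamed probe, ILMN_1216322, had 11.71 and 11.73 under GW1516, against 10.53 and 10.52 under DMSO, and rose 2.28-fold. The groups did not overlap in any of the 8 features, which adds little to the calls themselves. Over all features 20.9% had the GW1516 pair above the DMSO pair.

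**Figure D1:**
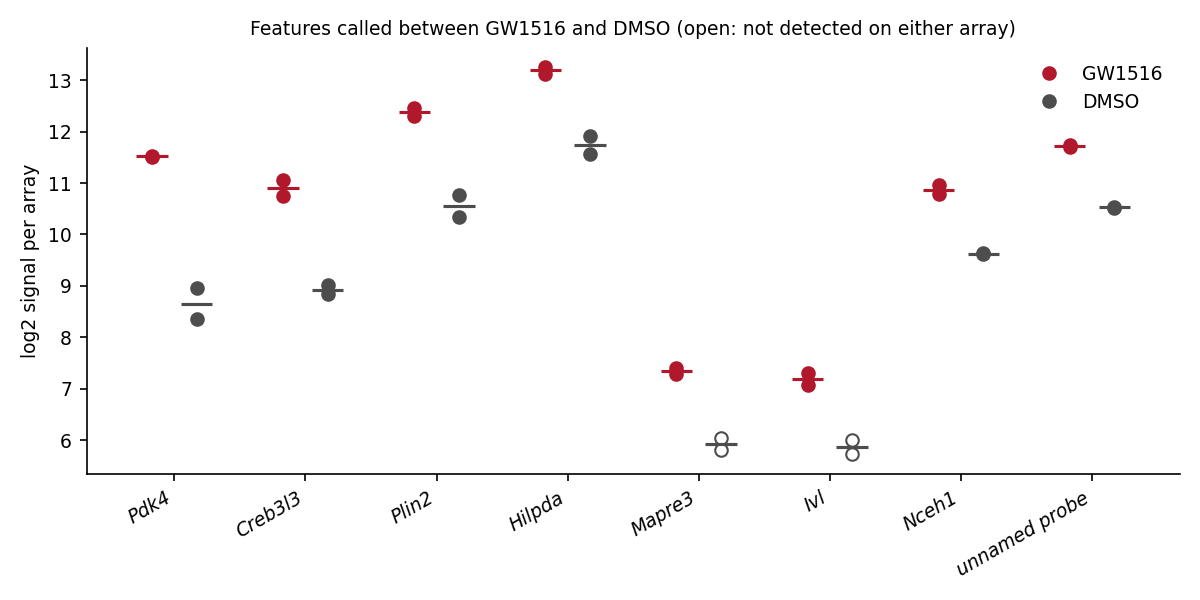
Log2 signal (background-corrected, quantile-normalised) of the 8 called features on each array, with GW1516 left of DMSO, 1 point per array, a bar at each group mean and open points where neither array of the group detected the probe. Both GW1516 points lie above both DMSO points for every feature, with the widest gap for Pdk4, and Mapre3 and Ivl have open DMSO points.

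These calls rest on few arrays. Without GW1516 array A 0 features were called, and without GW1516 array B 2 were (Pdk4 and Creb3l3). Without DMSO array A or without DMSO array B only Pdk4 was called.

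Across all 7947 features the log2 difference had a median of 0.00, a 5th percentile of -0.44 and a 95th percentile of 0.42. Differences of at least 1.5-fold were found in 134 features with GW1516 higher and 149 with GW1516 lower, and of at least 2-fold in 11 higher and 2 lower. Median scaling in place of quantile normalisation moved the median of all features to -0.09, and the 1.5-fold counts to 97 higher and 258 lower. At an unadjusted p below 0.05 with at least 1.5-fold, here called the nominal threshold, 131 features (1.65%) were higher and 139 (1.75%) were lower. The GW1516 pair of arrays lay above the DMSO pair in 1659 features (20.9%) and below it in 1582 (19.9%). With 2 arrays per group such separation can occur without any effect of treatment, and it was not tested. The nominal differences sat mostly among dim probes: the dimmest of 3 equal groups of 2649 features held 91 of the 131 and 95 of the 139, and the brightest held 13 and 15. The pooled SD between the arrays of a treatment was 0.285 under GW1516 and 0.261 under DMSO in the dimmest group, and 0.18 under GW1516 and 0.159 under DMSO in the brightest. Of the 8 called features, 4 were in the brightest group. Although 0 features were called lower, 393 were lower and 377 higher at an unadjusted p below 0.05 alone, and the smallest adjusted p among the lower ones was 0.133 in limma.

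**Figure D2:**
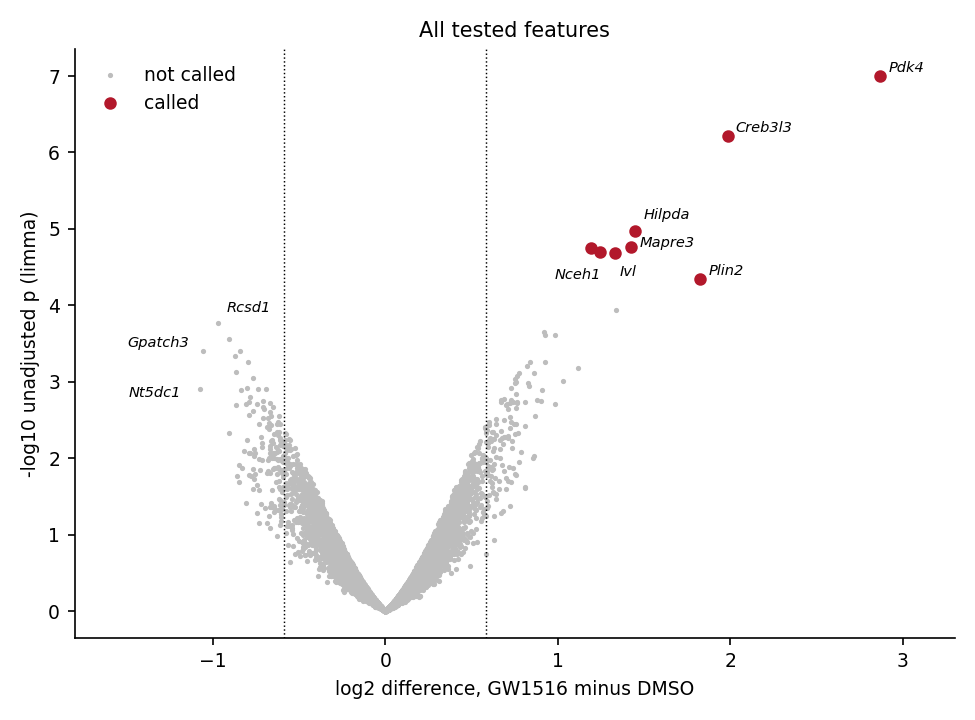
Log2 difference, GW1516 minus DMSO, of every tested feature against -log10 of its unadjusted limma p, with called features in red and dotted lines at 1.5-fold. All 8 called features lie on the right, the 7 named ones are labelled, and the largest falls, such as Nt5dc1 at -1.07, stay uncalled.

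Known PPAR target genes had the highest median of the 44 lists and 12 families examined. The list holds 50 genes, of which 45 had a probe and 30 were tested, with a median log2 difference of 0.46, against 0.00 over all features. Of the 30, 5 were called higher (Pdk4, Creb3l3, Plin2, Hilpda and Nceh1), 13 passed the nominal threshold upward and 1 downward, and 23 (76.7%) had both GW1516 arrays above both DMSO arrays. Over all features 0.101% were called higher, 1.65% passed the nominal threshold upward and 20.9% had the GW1516 pair above the DMSO pair. The list was drawn up with earlier results of these data known, so its counts are a description. The exception was Gpd1, the glycerol phosphate dehydrogenase of triglyceride synthesis, with 6.44 and 6.68 under GW1516, against 7.67 and 6.96 under DMSO (limma, adjusted p = 0.379).

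Several classical targets stood at moderate positive differences without a call. Angptl4, the secreted inhibitor of lipoprotein lipase, had 13.79 and 13.59 under GW1516, against 13.18 and 13.27 under DMSO, a log2 difference of 0.46 ± 0.17 (limma, adjusted p = 0.444). Fgf21, the fasting hormone of the liver, had 11.50 and 11.32 under GW1516, against 10.94 and 11.01 under DMSO, a difference of 0.43 ± 0.16. In both genes the GW1516 pair stood above the DMSO pair, as in 20.9% of all features. Cyp4a14, a fatty acid omega-hydroxylase and a marker of PPAR-alpha activation in mouse liver, differed by 0.30 ± 0.20. Among the receptors, Rxra, the DNA-binding partner, differed by 0.42 ± 0.18 and Pparg by -0.01 ± 0.21. Ppard and Ppara were detected on 0 of the 4 arrays and were not tested, so the level of the receptor that the agonist targets is not measured here. Fabp1 and Cd36 were likewise detected on 0 arrays. Cpt1a, the entry enzyme of mitochondrial oxidation, was detected on 1 of 2 GW1516 arrays and 0 of 2 DMSO arrays, and each of the 2 Acot1 probes showed the same pattern.

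Mitochondrial fatty acid oxidation genes had a median log2 difference of 0.28 over 21 tested members, of which 6 passed the nominal threshold upward, 0 downward and 0 were called. Over all features 1.65% passed it upward and 1.75% downward, the shares to set beside the list counts that follow. Acadl, the long-chain acyl-CoA dehydrogenase, had 9.49 and 9.21 under GW1516, against 8.47 and 8.27 under DMSO, a difference of 0.98 ± 0.17 (limma, adjusted p = 0.150). On a dimmer second Acadl probe the difference was 1.42 ± 0.18, with an adjusted p of 0.0292 in a limma fit over every kept probe. Cpt2, which releases acyl-CoA inside the mitochondrion, had 10.96 and 11.11 under GW1516, against 10.09 and 10.32 under DMSO (limma, adjusted p = 0.232). With the authors' normalised values Acadl and Cpt2 were called. Slc22a5, the carnitine transporter of the cell surface, had 9.12 and 9.11 under GW1516, against 8.34 and 8.36 under DMSO, a difference of 0.76. Its other kept probes were unequal, at 1.25 ± 0.17 and 0.22 ± 0.23 (limma, adjusted p = 0.0369 and 0.799 over all detected probes). Further along the pathway, Eci2, an isomerase for unsaturated chains, differed by 0.72 ± 0.17, and Etfdh, which passes the electrons on to ubiquinone, by 0.70 ± 0.17. Smaller values were found for Hadhb of the trifunctional protein (0.47), the carnitine-acylcarnitine carrier Slc25a20 (0.42) and the very-long-chain dehydrogenase Acadvl (0.38). The medium-chain dehydrogenase Acadm, one of the brightest of the list at 13.58 and 13.83 under GW1516, against 13.76 and 13.83 under DMSO, differed by -0.09 ± 0.20.

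Peroxisomal genes had a median of 0.14 over 34 tested members, and 5 passed the nominal threshold upward and 0 downward. Ehhadh, the bifunctional enzyme of peroxisomal beta-oxidation, had 9.07 and 8.48 under GW1516, against 7.29 and 7.59 under DMSO. Its difference of 1.34 ± 0.22 was the largest without a call (limma, adjusted p = 0.102), though it was called with the authors' normalised values (limma, adjusted p = 0.0223), and its GW1516 arrays had an SD of 0.42. Acaa1b, a peroxisomal thiolase, differed by 0.71 ± 0.20, the peroxisome division gene Pex11a by 0.63 ± 0.20 and the acyl-CoA transporter gene Abcd3 by 0.46 ± 0.20. The membrane protein gene Pxmp4 had 6.40 and 6.33 under GW1516, against 5.59 and 5.47 under DMSO, where it was not detected. It was at least 1.12-fold higher, and passed the detection rule only through the GW1516 arrays.

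The acyl-CoA thioesterases, which free fatty acids from coenzyme A had no common direction: the median over 10 tested members was 0.00 and 2 passed the nominal threshold upward. The mitochondrial Acot2 had 7.89 and 7.73 under GW1516, against 6.91 and 6.49 under DMSO, a difference of 1.11 ± 0.23 (limma, adjusted p = 0.239). The peroxisomal Acot4 had 8.45 and 8.21 under GW1516, against 7.48 and 7.73 under DMSO. Acot9 and Acot13 stood at -0.46 and -0.40, with both GW1516 arrays below both DMSO arrays in each, as in 19.9% of all features. Genes of pyruvate dehydrogenase control also stood on both sides. Besides Pdk4, the complex's own Pdha1 stood at -0.61 ± 0.26 and its shared subunit Dld at 0.49 ± 0.17, the kinase Pdk1 at 0.35 and the opposing phosphatase Pdp2 at -0.28, and of these, each at its brightest probe, only Pdha1 passed the nominal threshold. A further probe of Pdp2 was at -0.67 ± 0.24 (limma, adjusted p = 0.439 over all detected probes).

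Lipid droplet and triglyceride storage genes had a median of 0.18 over 25 tested members, with 2 called higher, 3 past the nominal threshold upward and 1 downward. Members of the same small families stood on opposite sides. Among the perilipins, which coat droplets, Plin2 rose, Plin3 stood at -0.39 ± 0.18 and Plin5, not detected under DMSO, was at least 1.12-fold higher. Among the CIDE proteins, which fuse droplets or load lipoproteins, Cidec had 7.20 and 7.57 under GW1516, against 6.32 and 6.94 under DMSO, whereas Cideb had 8.43 and 9.31 under GW1516, against 9.38 and 9.84 under DMSO. Dgat1, which makes triglyceride, stood at -0.53 ± 0.23 and did not pass the nominal threshold. Of 16 tested lipases and angiopoietin-like proteins, with a median of 0.20, Nceh1 was called. The lysosomal lipase gene Lipa (0.62 ± 0.19), the monoglyceride lipase gene Mgll (0.58 ± 0.19) and the triglyceride lipase gene Pnpla2 (0.44 ± 0.16) were also higher on both GW1516 arrays than on both DMSO arrays. Of the 16, 8 (50%) stood so and 3 (18.8%) the other way. Over all features the shares were 20.9% and 19.9%. The 17 tested genes of fatty acid uptake, binding and activation had a median of 0.05, and 0 passed the nominal threshold.

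**Figure D3:**
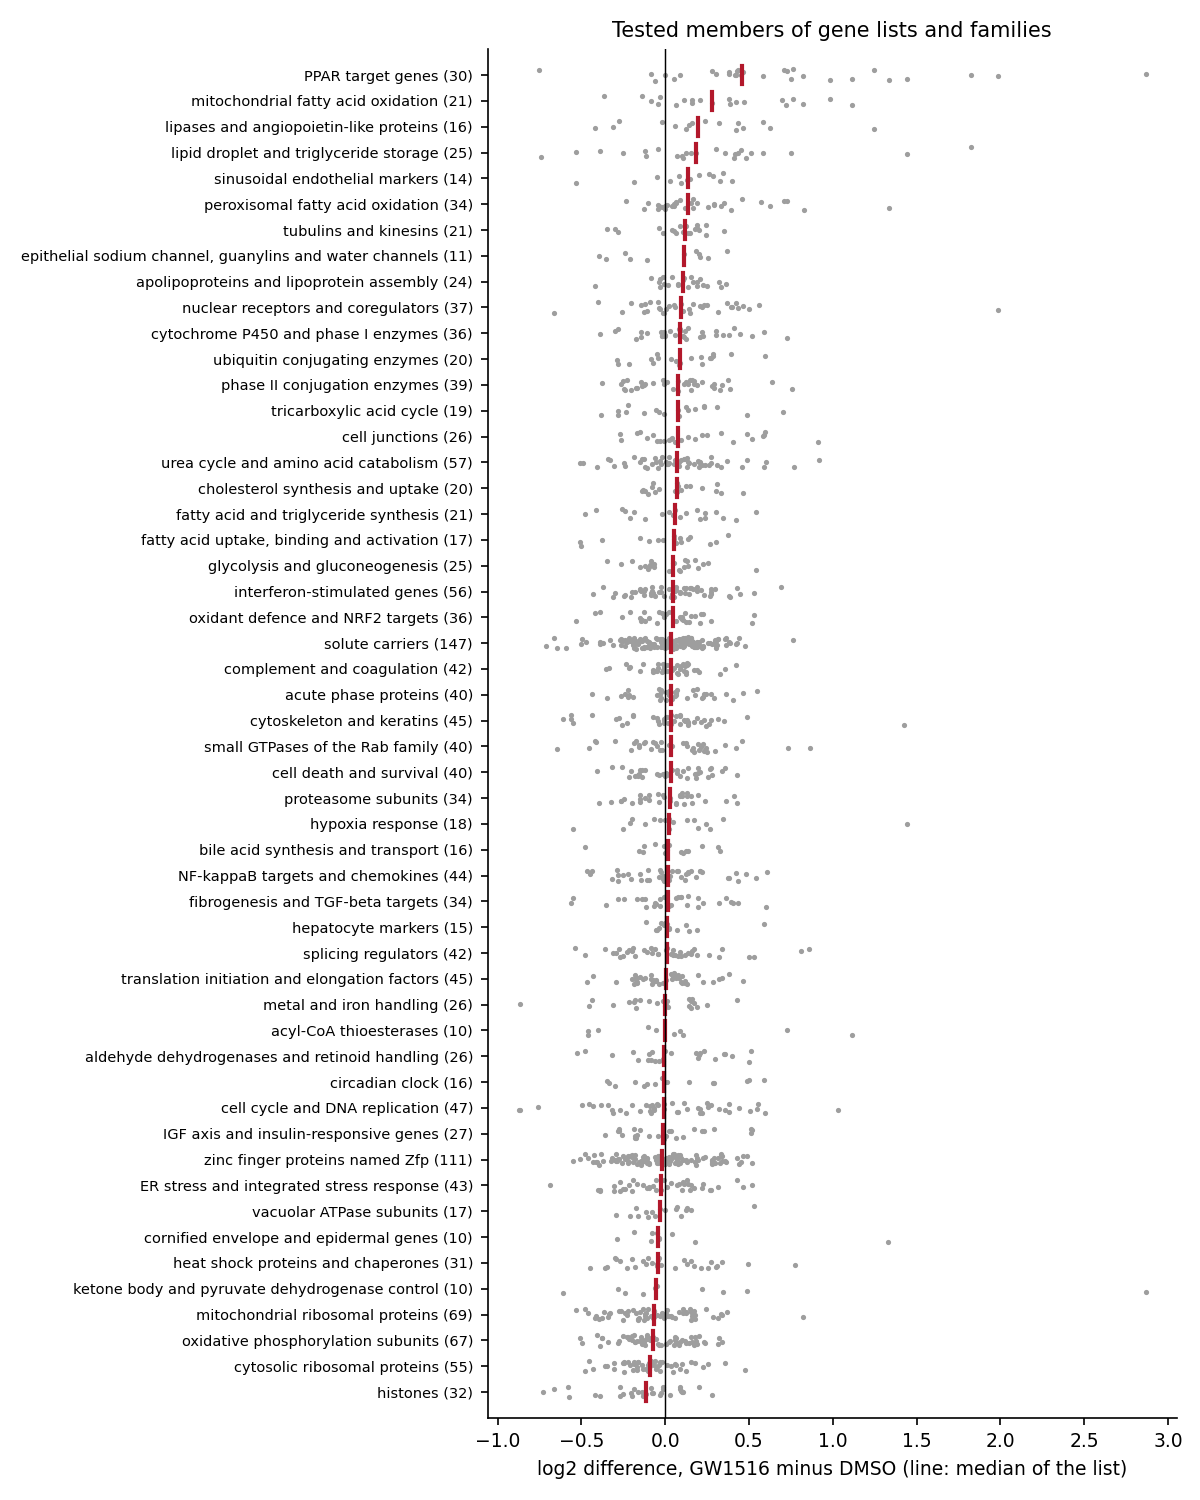
Log2 differences, GW1516 minus DMSO, of the tested members (grey points, number in brackets) of each list or family with at least 10 of them, with a red bar at the median and a black line at 0. PPAR target genes have a median of 0.46 and mitochondrial fatty acid oxidation genes 0.28, and the medians of histones (-0.11) and cytosolic ribosomal proteins (-0.09) lie left of the line.

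Outside fat metabolism no list held a called gene other than those above, and the nominal differences were few. Cell junction genes had a median of 0.08 over 26 tested members, with 4 past the nominal threshold upward and 0 downward. Over all features 1.65% passed it upward and 1.75% downward. Gjb1, the main gap junction connexin of hepatocytes, had 8.73 and 8.47 under GW1516, against 7.91 and 7.47 under DMSO, a difference of 0.91 ± 0.20 (limma, adjusted p = 0.253). Its partner connexin Gjb2 had 13.12 and 13.03 under GW1516, against 12.47 and 12.63 under DMSO, and Gja1 differed by 0.41 ± 0.19. Gja4, 1 of the 4, was not detected under DMSO and was at least 1.28-fold higher under GW1516. It passed the detection rule only through the GW1516 arrays, where it was higher. The tight junction genes Cldn2, Jam2 and Cldn14 stood at 0.59, 0.59 and 0.49. The endothelial marker sums given above were also higher under GW1516, but not every marker rose. Of the 14 tested, 11 stood above 0, while Lyve1 was at -0.53 ± 0.18. Egfl7 was at 0.33 on its brightest probe and at -0.03 on a further probe. The part of endothelial cells in the junction values was not tested.

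Amino acid catabolism showed 4 of 57 tested genes past the nominal threshold upward and 0 downward, with a median of 0.07 that turned to -0.04 under median scaling. For this and the next lists, the shares over all features were 1.65% upward and 1.75% downward. Bckdhb, a subunit of the dehydrogenase of branched-chain keto acids, had 8.09 and 8.15 under GW1516, against 7.16 and 7.24 under DMSO, a difference of 0.92 ± 0.16 (limma, adjusted p = 0.150). Bhmt, which remethylates homocysteine, differed by 0.77 ± 0.21, Gcsh of the glycine cleavage system by 0.60 ± 0.22 and the mitochondrial arginase gene Arg2 by 0.59 ± 0.20. In the tricarboxylic acid cycle Idh3a differed by 0.70 ± 0.17, the only 1 of 19 tested genes past the nominal threshold. Among enzymes that handle foreign compounds, 2 of 36 phase I genes (Fmo5 at 0.73 and Cyp2c29 at 0.59) and 2 of 39 conjugation genes (Ugt2a3 at 0.76 and Gsto2, not detected under DMSO and at least 1.33-fold higher) passed it upward and 0 downward. Gsto2 passed the detection rule only through the GW1516 arrays.

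Among genes of fibrosis, stress and inflammation the nominal differences were few, and over all features 1.65% were nominal upward and 1.75% downward. Of 34 tested fibrogenesis and TGF-beta target genes, with a median of 0.02 that was -0.07 under median scaling, 1 passed the nominal threshold. This was Ccn2, a matricellular growth factor, with 14.24 and 14.20 under GW1516, against 13.68 and 13.55 under DMSO, a difference of 0.60 ± 0.16 (limma, adjusted p = 0.322), and called with the authors' normalised values (limma, adjusted p = 0.0376). The intermediate filament gene Vim stood at -0.55 ± 0.23. Of 56 interferon-stimulated genes 1 passed the nominal threshold (Ifnk, a type I interferon, at 0.69), and of 44 NF-kappaB targets and chemokines 1 (Cxcl14 at 0.61). Of 43 tested genes of ER stress and the integrated stress response, 1 passed it downward (Dnajc3 at -0.69 ± 0.18) and 0 upward. Of 31 tested heat shock proteins and chaperones, 1 passed it upward (Dnajb4 at 0.77 ± 0.25, detected on 1 DMSO array) and 0 downward. The lists of oxidant defence (36 tested), acute phase proteins (40), complement and coagulation (42) and cell death (40) held 0 genes past it in either direction.

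No fall was called. Among named genes at an unadjusted p below 0.01, the 15 largest negative differences with both GW1516 arrays below both DMSO arrays had fitted sizes of 1.73-fold to 2.11-fold, and their adjusted p lay between 0.133 and 0.379 in limma. Nt5dc1, which encodes a protein with a nucleotidase domain, had 6.71 and 6.19 under GW1516, against 7.38 and 7.66 under DMSO, a difference of -1.07 ± 0.24 (limma, adjusted p = 0.253). Rcsd1, which encodes a protein that binds the actin capping protein CapZ, had 6.65 and 6.44 under GW1516, against 7.46 and 7.57 under DMSO, had the smallest adjusted p among lower features and was called when detection was set at p below 0.01 (limma, adjusted p = 0.0439). Uap1l1 had 7.85 and 7.71 under GW1516, against 8.70 and 8.55 under DMSO. B4gat1, a glycosyltransferase gene of the dystroglycan pathway, had 8.46 and 8.51 under GW1516, against 9.20 and 9.36 under DMSO, and was called with a trended robust variance (limma, adjusted p = 0.0486). The lysosomal protease gene Ctsd stood at -0.90 ± 0.25 and Rnf41, an E3 ubiquitin ligase gene, at -0.82 ± 0.25, though a further probe of Rnf41 was at 0.33.

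Of these 15, 5 were genes not detected on either GW1516 array, so only bounds hold. These 5 passed the detection rule only through the DMSO arrays. They were the G-patch protein gene Gpatch3 (at least 1.20-fold lower), the cell cycle inhibitor gene Cdkn2c (at least 1.27-fold lower), the DNA primase subunit gene Prim2 (at least 1.32-fold lower), the helicase gene D1Pas1 (at least 1.35-fold lower) and Rragd, a GTPase gene of amino acid sensing (at least 1.62-fold lower). The median level of the 15 was 6.45 under GW1516, against 7.51 under DMSO, and among the 15 largest positive differences of named genes it was 8.78 under GW1516 and 7.69 under DMSO. Among these largest rises, 7 were called and 3 were not detected under DMSO, passing the detection rule only through the GW1516 arrays.

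The metallothionein gene Mt2, whose protein binds zinc and cadmium, had 10.51 and 10.76 under GW1516, against 11.26 and 11.74 under DMSO, a difference of -0.86 ± 0.21 (limma, adjusted p = 0.253), and was called lower with the authors' normalised values at -0.77. Cell cycle and replication genes had 2 of 47 past the nominal threshold upward and 3 downward, and over all features 1.65% passed it upward and 1.75% downward. Of the higher ones, Rad54b, a recombination gene, stood at 1.03 ± 0.22 and the polymerase gene Pole, not detected under DMSO, was at least 1.07-fold higher. The lower ones were Cdkn2c, Prim2 and the mitotic kinase gene Aurka, which was not detected under GW1516 and was at least 1.20-fold lower. Of the genes past the threshold only Rad54b was detected in both groups. The others passed the detection rule only through the group where they were higher.

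**Figure D4:**
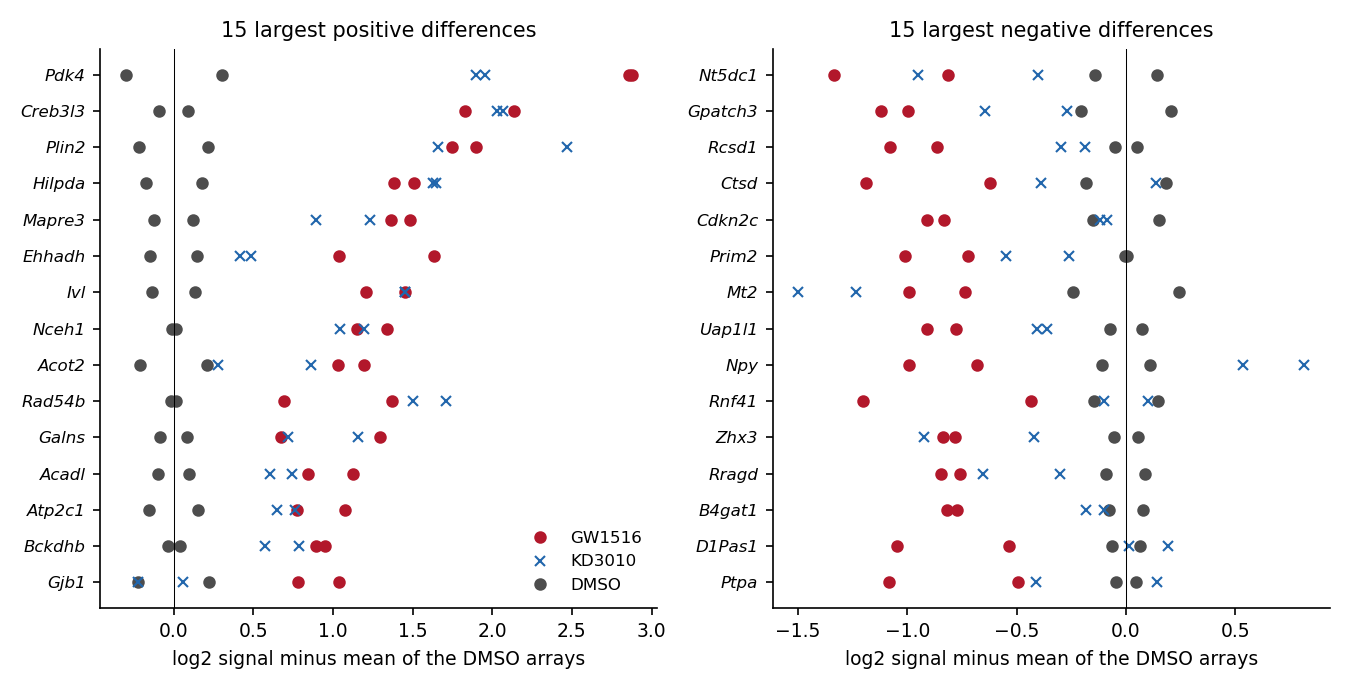
Log2 signal on each array minus the mean of the DMSO arrays, for the 15 largest positive (left) and 15 largest negative (right) differences of named genes between GW1516 and DMSO, with GW1516 arrays as red points, KD3010 arrays as blue crosses and DMSO arrays as grey points. The group differences reach 2.87 for Pdk4 and -1.07 for Nt5dc1, and the KD3010 crosses of Npy lie on the other side of DMSO than its GW1516 points (mean differences of -0.84 for GW1516 and 0.67 for KD3010).

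Among the large families, ribosomal proteins, oxidative phosphorylation subunits and histones had medians below 0. Over all features 20.9% had the GW1516 pair above the DMSO pair and 19.9% below it. Of 55 tested cytosolic ribosomal protein genes 14 were above 0, with a median of -0.09, and 22 (40%) had both GW1516 arrays below both DMSO arrays, against 5 (9.09%) above them. Subunits of oxidative phosphorylation (67 tested) had a median of -0.07, with 29.9% below and 13.4% above, and mitochondrial ribosomal proteins (69 tested) a median of -0.06, with 29% below and 10.1% above. Examples were Rps7 at -0.48 ± 0.21, Ndufa2 of complex I at -0.51 ± 0.19 and Mrps18b at -0.53 ± 0.19. Some members stood above 0: Mrpl39, at 0.82 ± 0.18, was the only mitochondrial ribosomal protein gene past the nominal threshold. The cytosolic Rps15a, not detected under DMSO, was at least 1.07-fold higher. Histone genes (32 tested) had a median of -0.11, with 7 (21.9%) below, close to the share over all features, and 2 above. None of these genes was called. Their medians kept their sign under all 19 alternative settings, though some of these repeat another setting or cannot change a log2 difference. Under median scaling the median was -0.19 for cytosolic ribosomal proteins and -0.22 for histones. Proteasome subunits (34 tested) had a median of 0.03 that was -0.08 under that scaling. Vacuolar ATPase subunits (17 tested) had a median of -0.03 and zinc finger proteins named Zfp (111 tested) of -0.02. Neither median kept its sign under all 19 alternative settings. The other families had medians above 0: 0.12 for tubulins and kinesins (21 tested), 0.09 for ubiquitin conjugating enzymes (20), 0.04 for solute carriers (147), 0.03 for Rab GTPases (40) and 0.01 for translation factors (45). Under median scaling all of these were below 0 except tubulins and kinesins at 0.02.

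The KD3010 arrays give the values of a second agonist, set against the same DMSO arrays, so the agonists' differences from DMSO are not independent, and doses are not given. For Pdk4 the log2 difference from DMSO was 2.87 under GW1516 and 1.93 under KD3010. It was 1.98 under GW1516 and 2.05 under KD3010 for Creb3l3, and 1.82 under GW1516 and 2.06 under KD3010 for Plin2. Directly between the agonists, 0 of 7947 features were called in limma (0%), with 1088 at an unadjusted p below 0.05 and a smallest adjusted p of 0.0556. Pdk4 was higher under GW1516 by 0.94, with a 95% confidence interval of 0.48 to 1.40, and Creb3l3 differed by -0.06, with an interval of -0.45 to 0.32. Npy, the neuropeptide Y gene, had 6.56 and 6.87 under GW1516, against 7.66 and 7.44 under DMSO. It was 1.51 lower on the log2 scale under GW1516 than under KD3010 (limma, adjusted p = 0.0556). The clock gene Per2 was 1.13 higher under GW1516 than under KD3010 (limma, adjusted p = 0.0726) on its brightest probe, while a further probe did not share its direction against DMSO. Between the agonists, Gjb1 was higher under GW1516 by 0.99, with an interval of 0.54 to 1.45, and Ehhadh by 0.88, with an interval of 0.40 to 1.37, and neither was called. PPAR target genes had a median difference from DMSO of 0.46 for GW1516 and 0.28 for KD3010, and mitochondrial oxidation genes of 0.28 for GW1516 and 0.25 for KD3010.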

How the data were processed

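Total RNA of 6 samples was hybridised to Illumina bead arrays. Per the file headers, the deposited raw table gives each probe's bead intensity (linear, unnormalised) and detection p-value; the submitters' processing notes name GenomeStudio. A second deposited table and the series matrix hold intensities normalised by the authors; how is not given in the sources used here. Both hold the same values (largest difference 0), so letter A in the column names stands for replicate 1 and letter B for replicate 2, and bead counts per probe tie the unnormalised columns to them (100% equal for the same array, at most 4.54% for others). A further 1 unnamed column was not used.

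Intensities were background-corrected with normexp fitted on the detection p-values (offset of 16), put on the log2 scale and quantile-normalised over the 6 arrays, with limma 3.58.1 under R 4.3.3. Of 25697 probes, 23978 had 1 symbol in the platform annotation, 0 several and 1719 none. lmFit and eBayes were run over all 6 arrays (3 residual and 6.67 prior degrees of freedom), with Benjamini-Hochberg adjustment over 7947 features, and the 2 arrays per group limit the precision. The fit was tested on simulated data. The 44 gene lists and 12 families named by symbol, and the members, were chosen with earlier results of these data known. Genes named were all called features, the 15 largest rises and 15 largest falls at an unadjusted p below 0.01 without overlap of the groups, up to 4 non-overlapping genes of each list, and a core set of PPAR genes. The others (among them Gpd1, Eci2, Etfdh, Hadhb, Slc25a20, Pex11a, Abcd3, Acot13, Pdk1, Plin3, Plin5, Pnpla2, Gjb2, Gja1, Cldn14 and Pole) were chosen after their values were seen. Alternatives changed the background correction, normalisation, filter, probe rule, variance model, replicate block and the arrays used.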

Additional observations from a re-analysis of the deposited data

How the results depend on the processing

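Against 8 calls, settings other than leaving out an array moved the count by more than 1.5 times in 4 cases: 4 calls under median scaling, 2 without a filter on dim probes (Pdk4 and Creb3l3), 16 with a trended robust variance (13 higher, and Mt2, B4gat1 and an unnamed probe lower) and 3 with a replicate block (Pdk4, Creb3l3 and Hilpda). Leaving out any GW1516 or DMSO array also lowered the count by more than 1.5 times. The replicate numbers of the labels did not pair the arrays, with correlations of same-numbered deviations between -0.02 and 0.01, so the block is given only here. Leaving out 1 array gave 0 to 8 calls; the lone array of a group was then assumed to vary like the others. The authors' normalised values and the series matrix gave 12 calls each, 11 higher and Mt2 lower, and kept 6 of the 8, without Mapre3 and Ivl. A filter added after seeing the data, detection in any of the 3 groups, kept all 8. Detection set at p below 0.01 called Rcsd1 lower.

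Pdk4 was called under 18 of 19 alternatives, Creb3l3 under 16, Hilpda under 14 and Plin2 under 11. The 19 alternatives are not all distinct. The authors' normalised values equal those of the series matrix. Leaving out either KD3010 array gave the same calls as fitting the GW1516 and DMSO arrays alone. The variance model, the replicate block and the KD3010 arrays did not alter the log2 differences, so these settings could not change a sign. Of 229 genes followed, 5 changed sign in some setting. When all probes of a gene were averaged, Aqp1 was at -0.0059, Eif2b5 at -0.0435 and Ube2q2 at 0.129. Each has a further probe of the opposite sign to its brightest one, at -0.34 for Aqp1, -0.72 for Eif2b5 and 0.55 for Ube2q2. Another probe kept the sign of the brightest in Aqp1 (0.12) and Eif2b5 (0.20). Leaving out 1 array at a time, Acadm lay between -0.214 and 0.0392 and Pparg between -0.227 and 0.210. Why the probes of a gene or the arrays of a group differed was not tested. Signal near background limits the dimmest features.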
